A study of Mus musculus with 12 samples.

Results

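Serpins are a superfamily of protease inhibitors, and 46 of the 29428 genes in this RNA-seq data set of mouse striatal cells carry a serpin name. The members were taken by name, as every gene named Serpin followed by a clade letter from a to i and a number, leaving out Serping1. STHdhQ7/Q7 cells (normal huntingtin, 7 repeats) and STHdhQ111/Q111 cells (the Huntington's disease genotype, 111 repeats) are immortalized striatal lines, each of them a single line, so that the repeat length and every other difference between both lines cannot be told apart. Each line was left nontreated (Q7-C and Q111-C) or was exposed for 24 h to 100 ng/mL murine IFNγ together with 5 μg/mL LPS (Q7-T and Q111-T), with 3 libraries per group. The study asked how both lines respond to this neuroinflammatory stimulus, and describes the 3 libraries of each group as biological replicates. The sources used here do not say whether these came from separate cultures, and the p-values measure the spread between these samples.

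Most serpins act as bait. A protease cleaves the exposed reactive loop, the serpin folds around it, and both remain locked together. Clade A members are mostly secreted, and in mouse the human gene SERPINA3 corresponds to a cluster of Serpina3 genes, of which Serpina3n is known as a marker of reactive astrocytes. Clade B members stay mostly inside the cell, where they neutralize granzymes, cathepsins and elastase. Clades C, D, E and I act mainly on thrombin and the plasminogen activators. Serpinf1 and Serpinh1 have the fold but are no inhibitors, since Serpinf1 encodes a secreted neurotrophic and anti-angiogenic factor and Serpinh1 the collagen chaperone HSP47.

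Library totals ranged from 57505990 to 96417834 estimated counts, and 23 of the 46 serpins reached 0.5 TPM in 3 or more of the 12 libraries. These 23 were tested among 16127 genes with edgeR's quasi-likelihood test. A gene whose adjusted p (Benjamini-Hochberg) was under 0.05 and whose change was 2-fold or more is called a DEG. By clade, 7 of 18 members of clade A passed this minimum, as did 10 of 19 of clade B, 2 of 3 of clade E, 1 of 2 of clade F, and the single members of clades D, H and I, whereas the single member of clade C did not. Only 12 of the 23 reached 0.5 TPM in a library of every group. The other 11 passed through fewer groups, which favours a difference between groups, so the counts of DEGs are given beside the share of all genes and are no test of the family. Of the 6 neuronal markers, Rbfox3 and Nefl were not among the genes listed, Snap25 and Syt1 were at or near 0, and Map2 and Tubb3 were expressed, with Tubb3 at 16.9 ± 0.803 TPM in Q7-C and 74.6 ± 14.5 in Q7-T, against 3.91 ± 1.21 in Q111-C and 24.7 ± 1.76 in Q111-T (each mean ± SD, n = 3). Map2 had 7.93 ± 3.20 TPM before and 2.13 ± 1.34 after treatment of STHdhQ7 cells, and 5.90 ± 0.358 and 5.61 ± 1.08 TPM in STHdhQ111 cells. Of the 6 markers of striatal projection neurons, the receptors Drd1 and Drd2 were not listed. The 4 that were listed summed to 0.290 to 0.486 TPM in nontreated and 0.077 to 0.28 TPM in treated STHdhQ7 cells. For STHdhQ111 cells the sums were 1.17 to 1.46 TPM without treatment and 0.609 to 1.49 TPM with it. Among them, Ppp1r1b had 0.303 ± 0.0917 TPM in nontreated STHdhQ7 cells and 1.12 ± 0.162 TPM in nontreated STHdhQ111 cells. The 6 mesenchymal markers summed to 4223 to 4807 TPM in nontreated and 3281 to 3703 TPM in treated STHdhQ7 cells, and to 3528 to 3676 TPM in nontreated and 1484 to 1599 TPM in treated STHdhQ111 cells. Within this sum, the nontreated lines differed in opposite directions. Acta2 had 1670 ± 105.9 TPM in Q7-C and 43.74 ± 16.79 in Q111-C. Col1a1 had 265.1 ± 30.57 and 790.6 ± 14.31, Col1a2 14.6 ± 3.988 and 250.2 ± 8.399, and Pdgfrb 39.15 ± 10.06 and 70.03 ± 4.175. Vim was similar (2493 ± 158 and 2462 ± 57.86), and Thy1 was at or near 0. Of the 7 macrophage or microglia markers, Aif1 and Cx3cr1 were not listed and Ptprc and Itgam were at or near 0, but Cd68 went from 7.09 ± 1.23 to 11.7 ± 3.23 TPM after treatment of STHdhQ7 cells and from 15.2 ± 1.19 to 48.8 ± 8.58 TPM after treatment of STHdhQ111 cells, whereas Tmem119 went from 12.3 ± 0.630 to 3.14 ± 0.193 and from 18.7 ± 1.40 to 5.13 ± 0.558 TPM. The macrophage sums were 17.8 to 20.6, 11.9 to 18.2, 31.8 to 37.0 and 46.0 to 62.5 TPM in Q7-C, Q7-T, Q111-C and Q111-T. The part of these markers in the results below was not tested. A level is a mean over all cells of a sample, in which fewer expressing cells and less RNA per cell cannot be told apart. In 11 of the 12 libraries the nearest library by its expression belonged to the same group, the exception being Q7-T replicate 2. Transcripts of hepatocytes were found in Q7-C replicate 3 and Q111-T replicate 2, and where leaving out one of these 3 libraries changes the call of a serpin, this is given beside it. TPM and the TMM scale of the test differ, since the median gene lay 0.274 (nontreated) and 0.341 (treated) higher in STHdhQ111 than in STHdhQ7 cells on the log2(TPM + 0.5) scale, against -0.020 and -0.029 after TMM scaling.

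After IFNγ/LPS, 11 of the 23 serpins tested rose in STHdhQ7 cells and 13 rose in STHdhQ111 cells. Of all genes tested, 2.93% rose in STHdhQ7 cells and 8.28% in STHdhQ111 cells. There were 10 serpins that rose in both lines, namely Serpina3f, Serpina3g, Serpina3h, Serpina3i, Serpina3n, Serpina3e-ps, Serpinb1a, Serpinb1b, Serpinb9 and Serpind1. Serpinb9e was a DEG in STHdhQ7 cells and did not pass in STHdhQ111 cells, and the reverse held for Serpinb9b, Serpine2 and Serpini1. For none of these 4 did the difference between the lines' responses pass both thresholds. Serpinb8 fell in STHdhQ111 cells, where 2.96% of all genes fell. In STHdhQ7 cells, where 1.11% fell, Serpinb5 passed downward, but from counts at the detection limit to 0, so that no fall is established. The median log2 fold change of the 23 serpins was 1.76 in Q7-T vs. Q7-C (1.71 with the undetected genes at their lower bounds) and 1.40 in Q111-T vs. Q111-C, against 0.003 and -0.005 over all genes. Without Q7-T replicate 2, 13 serpins passed in Q7-T vs. Q7-C, and with it 12. Serpina3m, Serpinb6a, Serpinb9f, Serpinb9g and Serpinh1 were among the serpins that were DEGs in none of the comparisons.

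**Figure D1:**
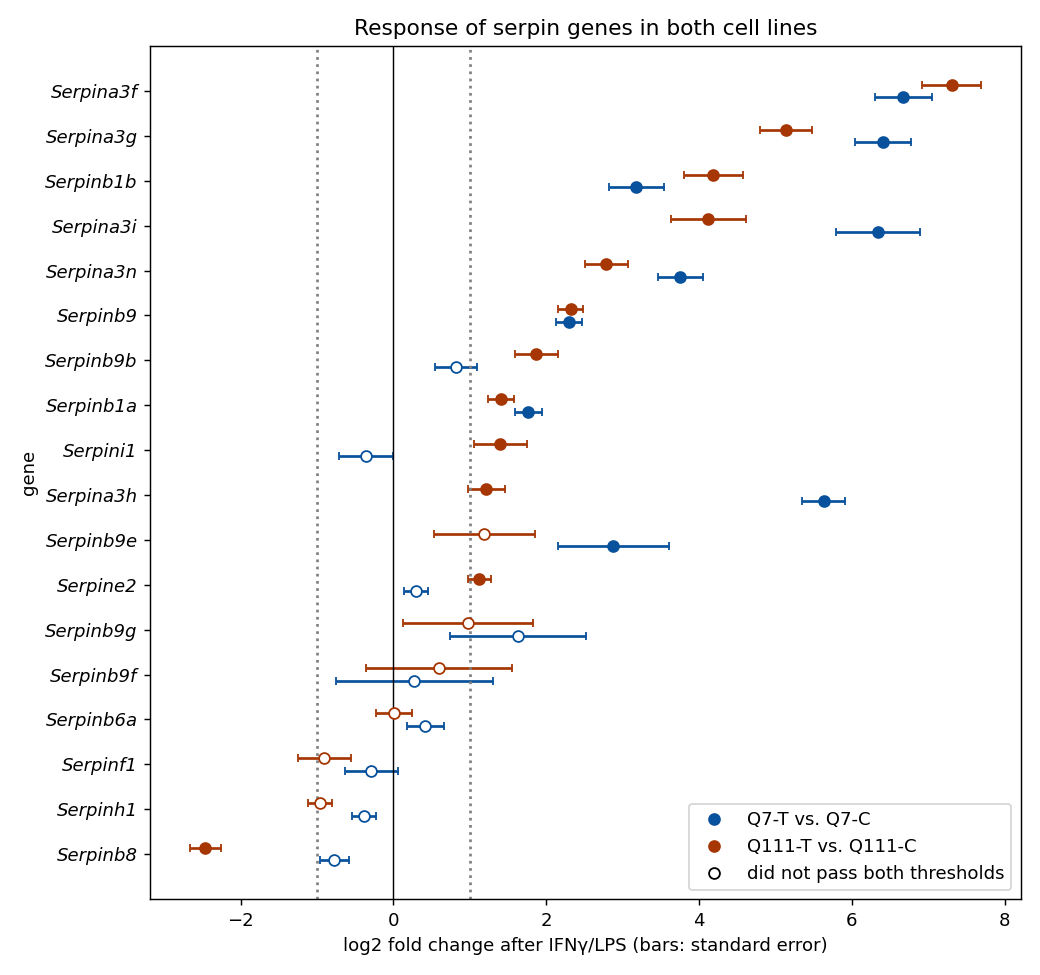
Log2 fold change after IFNγ/LPS (x axis, points with standard errors) of 18 serpin genes (y axis) in STHdhQ7 cells (blue) and STHdhQ111 cells (brown), with open points for genes that did not pass both thresholds and dotted lines at 2-fold. Serpina3h stands apart, with 5.63 in STHdhQ7 and 1.22 in STHdhQ111 cells. Serpina3m is left out for its spread, and Serpina3e-ps, Serpind1 and Serpinb5 because every library of a group has at most 12 estimated counts. Serpinb1b in STHdhQ111 cells and Serpina3i, Serpinb9e, Serpinb9f and Serpinb9g in STHdhQ7 cells are shown, but nontreated libraries of theirs lie at or near that limit.

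Between the lines, serpins differed in both directions. In Q111-C vs. Q7-C, 4 serpins were higher (Serpini1, Serpina3g, Serpinb9e and Serpinb5) and 2 were lower (Serpinf1 and Serpinb1b), where 7.62% of all genes were higher and 7.61% lower. In Q111-T vs. Q7-T, 4 were higher (Serpind1, Serpine2, Serpini1 and Serpinb5) and 4 were lower (Serpinf1, Serpinb8, Serpina3h and Serpina3i), where 13.3% of all genes were higher and 11.2% lower. The median log2 fold change of the serpins was 0.14 between nontreated and 0.32 between treated cells. The test of the difference between the lines' responses (interaction of line and treatment) passed for 3 serpins, where 3.52% of all genes differed upward and 1.2% downward. The difference was negative for Serpina3h, which rose less in STHdhQ111 cells, and for Serpinb8, which fell more. For Serpinb5 the fitted value was upward and of unknown size. The Serpinb5 difference is fitted against Q7-T libraries that are all at 0, did not pass with counts divided by 4 (adjusted p = 0.0940), and had the opposite sign with limma on log2 TPM.

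The promoters of the serpins that rose are shown first, for those in which one of 3 short motifs was found, because motifs of these kinds are known from promoters that respond to IFNγ or LPS. Of the 14 serpins that rose in at least one line, 11 had an entry in the RefSeq promoters (GRCm38.p6), and Serpina3e-ps, Serpina3h and Serpinb1a had none. Serpina3f had 2 entries, of which the upstream one is shown. The 250 bases before each start were searched on both strands for a GAS-type motif (TTC, any 3 bases, then GAA), an ISRE-type motif (GAAA, any 2 bases, then GAAA) and a κB-type motif (GGG, any 2 bases, then TTTCC). The capitals mark the matches, and all 5 promoters lie on the plus strand, at chr12:104214294-104214543 (Serpina3f), chr12:104235897-104236146 (Serpina3g), chr12:104262872-104263121 (Serpina3i), chr12:104406458-104406707 (Serpina3n) and chr13:33004291-33004540 (Serpinb9).
Serpina3f: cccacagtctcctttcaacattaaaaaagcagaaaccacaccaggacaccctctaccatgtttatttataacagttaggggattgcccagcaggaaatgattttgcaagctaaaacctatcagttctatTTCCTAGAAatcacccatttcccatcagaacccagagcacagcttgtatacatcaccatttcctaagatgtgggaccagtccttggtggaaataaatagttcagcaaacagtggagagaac
Serpina3g: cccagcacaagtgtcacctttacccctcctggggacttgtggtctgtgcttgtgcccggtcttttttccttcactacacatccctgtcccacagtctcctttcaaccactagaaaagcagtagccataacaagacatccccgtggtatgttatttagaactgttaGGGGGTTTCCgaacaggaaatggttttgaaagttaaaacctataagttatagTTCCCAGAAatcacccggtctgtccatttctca
Serpina3i: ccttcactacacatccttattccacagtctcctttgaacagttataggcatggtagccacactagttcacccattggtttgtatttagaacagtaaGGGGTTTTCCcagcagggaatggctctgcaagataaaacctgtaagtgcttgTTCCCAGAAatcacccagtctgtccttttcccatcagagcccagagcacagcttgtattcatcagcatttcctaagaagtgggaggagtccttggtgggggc
Serpina3n: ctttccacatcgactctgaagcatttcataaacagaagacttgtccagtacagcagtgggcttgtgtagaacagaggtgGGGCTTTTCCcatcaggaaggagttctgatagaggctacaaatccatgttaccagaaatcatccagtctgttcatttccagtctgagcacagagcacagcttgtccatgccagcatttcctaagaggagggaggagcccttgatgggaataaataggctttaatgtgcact
Serpinb9: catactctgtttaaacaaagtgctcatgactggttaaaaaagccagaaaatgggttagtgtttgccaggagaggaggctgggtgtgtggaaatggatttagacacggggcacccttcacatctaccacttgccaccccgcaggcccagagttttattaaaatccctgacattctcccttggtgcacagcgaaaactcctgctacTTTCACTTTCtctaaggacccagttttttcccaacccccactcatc

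The GAS-type match begins 121 bases before the start of Serpina3f, 33 bases before that of Serpina3g and 102 bases before that of Serpina3i. The κB-type match begins 85 bases before the start of Serpina3g, 154 before that of Serpina3i and 171 before that of Serpina3n. In Serpina3g and Serpina3i the κB-type match lies upstream of the GAS-type match, and both genes have the same letters at the latter, TTCCCAGAA, where Serpina3f has TTCCTAGAA. The ISRE-type match of Serpinb9, on the opposite strand as TTTCACTTTC, begins 46 bases before its RefSeq start. That start lies inside the gene coordinates given for Serpinb9 below. Among 32851 RefSeq promoters, 7.02% held the GAS-type motif, 2.98% the ISRE-type and 1.41% the κB-type, and 10.9% held any of them, as did 5 of the 11 serpins that rose. Of these, Serpina3f, Serpina3g, Serpina3i and Serpina3n belong to the same gene cluster and share stretches of letters in their promoters. They are thus not separate instances to set against the share of all promoters. Of the 7 serpins tested that did not rise and had an entry, Serpinb6a held a GAS-type and an ISRE-type match. A match is a description of letters, and binding was not measured.

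The Serpina3 genes lie side by side on chromosome 12 of GRCm38, from Serpina3e-ps to Serpina3n over 224.8 kb (chr12:104189517-104414329). Together they made up 0.802% of all serpin TPM in Q7-C and 1.07% in Q111-C, and 22.8% in Q7-T and 24.6% in Q111-T. The summed Serpina3 level went from 7.75 ± 1.70 TPM in Q7-C to 244.9 ± 35.2 in Q7-T and from 10.1 ± 2.41 in Q111-C to 241.4 ± 17.7 in Q111-T (each mean ± SD, n = 3). The sum was thus 31.6-fold higher after treatment in STHdhQ7 cells and 24-fold higher in STHdhQ111 cells (36.1-fold and 23.8-fold without Serpina3k, which was listed in 1 Q7-C and 1 Q111-T library only), and the treated lines differed by a factor of 1.01 in TPM. This near equality belongs to the TPM scale. On the TMM scale, where STHdhQ111 cells lie lower, no sum was taken. There Q111-T vs. Q7-T was 0.32 for Serpina3f, 0.60 for Serpina3g, -0.64 for Serpina3n, -1.64 for Serpina3i and -4.97 for Serpina3h (log2). The shares of the single genes in the summed Serpina3 TPM differed between the treated lines, however. Serpina3h gave 33.2 ± 4.17% of it in Q7-T and 1.41 ± 0.134% in Q111-T, whereas Serpina3f gave 31.8 ± 1.66% and 54.3 ± 1.30%, and Serpina3g 12.7 ± 1.64% and 26.5 ± 0.969%.

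**Figure D2:**
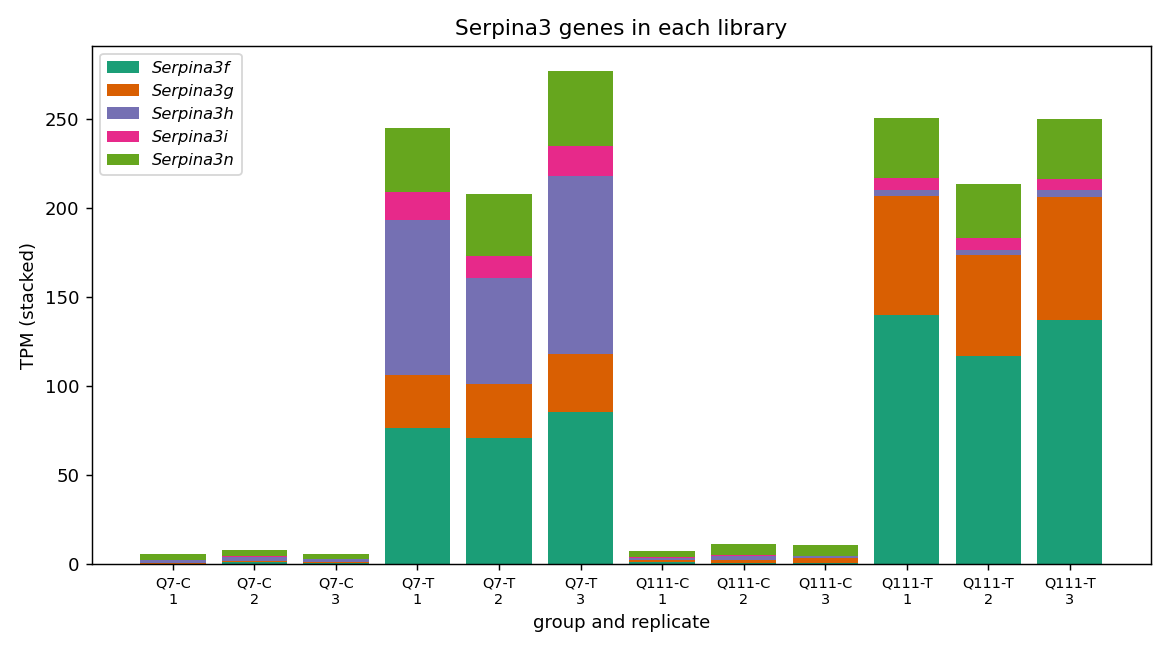
Stacked TPM (y axis) of 5 Serpina3 genes in each of the 12 libraries (x axis, group and replicate). The treated libraries of both lines reach similar totals on the TPM scale, and the Serpina3h portion is large in the 3 Q7-T libraries and barely visible in the 3 Q111-T libraries.

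Serpina3h (ENSMUSG00000041449, chr12:104247905-104253669) is annotated as a transcribed unprocessed pseudogene. Its TPM was 1.82, 2.25 and 1.42 in Q7-C, 87.4, 59.5 and 99.6 in Q7-T, 1.27, 2.08 and 1.33 in Q111-C, and 3.22, 3.13 and 3.88 in Q111-T. All nontreated libraries were low, the Q7-T libraries were far above every other library, and the Q111-T libraries lay above Q111-C without overlap. It rose by a log2 fold change of 5.63 (adjusted p = 2.25e-07, standard error, SE, 0.28, edgeR) in STHdhQ7 cells and of 1.22 (SE 0.24, adjusted p = 0.00450) in STHdhQ111 cells, where it did not reach 2-fold with limma on log2(TPM + 0.5) or log2(TPM + 1) (down to 0.80). The interaction was -4.42 (95% interval -5.19 to -3.65, adjusted p = 0.000105). In Q111-T vs. Q7-T the log2 fold change was -4.97 (adjusted p = 3.99e-07), and the mean TPM was 24.1-fold higher in Q7-T. Of the 100-base windows of its reference transcript, 3.60% also occur in another serpin transcript, most of them in Serpina3g.

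Serpina3i (ENSMUSG00000079014, chr12:104263122-104269372), the next gene in the cluster, had the same order of the treated lines with a smaller gap. Its TPM was 0.10, 0.387 and 0.147 in Q7-C, 15.7, 12.4 and 16.8 in Q7-T, 0.489, 0.549 and 0.138 in Q111-C, and 6.84, 6.34 and 5.93 in Q111-T. Every Q7-T library was above every Q111-T library, and the nontreated groups overlapped. Its response was 6.34 (SE 0.55, adjusted p = 1.76e-05, edgeR) in STHdhQ7 cells, 4.12 (SE 0.50, adjusted p = 0.000125) in STHdhQ111 cells and -1.64 (adjusted p = 0.0119) in Q111-T vs. Q7-T. The last call was lost without Q111-T replicate 3 (-1.53, adjusted p = 0.0509). The interaction of -2.22 did not pass (adjusted p = 0.0745), though it did without Q7-C replicate 2 (-2.88, adjusted p = 0.0343) or without Q111-C replicate 3, with DESeq2, and with limma on log2(TPM + 0.5) or log2(TPM + 1). Q7-C had 9, 32 and 15 estimated counts, partly at about the detection limit, so that the size of the STHdhQ7 response is uncertain. It ranged from 3.72 to 6.97 over the alternatives, the highest without Q7-C replicate 2.

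Serpina3f (ENSMUSG00000066363, chr12:104214544-104221129) had the largest fold change among the serpins detected in all groups. It was listed at 0.398, 1.42 and 0.925 TPM in Q7-C, 76.6, 70.7 and 85.6 in Q7-T, 1.15, 0.853 and 0.643 in Q111-C, and 139.8, 116.9 and 137.2 in Q111-T. The nontreated groups overlapped, and the treated libraries were all far above them. Treatment raised it by 6.67 on the log2 scale (SE 0.37, adjusted p = 5.18e-07, edgeR) in STHdhQ7 cells and 7.30 (SE 0.38, adjusted p = 2.93e-07) in STHdhQ111 cells, with an interaction of 0.63 (95% interval -0.31 to 1.57, adjusted p = 0.458). Every Q111-T library exceeded every Q7-T library in TPM, but on the TMM scale Q111-T vs. Q7-T was 0.32 (adjusted p = 0.402).

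Serpina3g (ENSMUSG00000041481, chr12:104236245-104241939) encodes an intracellular inhibitor of cysteine cathepsins. Its TPM was 0.362, 0.495 and 0.412 in Q7-C, 29.4, 30.6 and 32.5 in Q7-T, 1.11, 1.84 and 2.83 in Q111-C, and 67.0, 56.5 and 69.0 in Q111-T. The 4 groups did not overlap, and STHdhQ111 cells were higher both without and with treatment. In nontreated cells the log2 fold change of Q111-C vs. Q7-C was 1.86 (SE 0.32, adjusted p = 0.00121, edgeR), a call lost with limma on log2(TPM + 1), whereas that of Q111-T vs. Q7-T was 0.60 (adjusted p = 0.117) and passed in the 3 fits with limma (up to 1.05). The response was 6.40 in STHdhQ7 cells (adjusted p = 5.70e-07) and 5.14 in STHdhQ111 cells (adjusted p = 1.29e-06), with an interaction of -1.27 (adjusted p = 0.114) that passed with DESeq2 and without Q111-C replicate 1 (adjusted p = 0.0476).

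Serpina3n (ENSMUSG00000021091, chr12:104406729-104414329), the secreted astrocyte marker, had 3.26, 3.46 and 2.77 TPM in Q7-C, 35.5, 34.4 and 42.4 in Q7-T, 3.26, 5.90 and 6.01 in Q111-C, and 33.4, 30.5 and 33.5 in Q111-T. It was the Serpina3 gene with the highest mean of nontreated cells in both lines, and the treated libraries were all above the nontreated ones. It rose by 3.75 (SE 0.29, adjusted p = 6.71e-06, edgeR) in STHdhQ7 cells and 2.79 (SE 0.28, adjusted p = 2.88e-05) in STHdhQ111 cells, and the interaction of -0.97 did not pass (adjusted p = 0.169). The 6 astrocyte markers summed to between 1.05 and 1.98 TPM in Q7-C and 1.33 and 1.85 in Q7-T, and to between 9.01 and 11.1 in Q111-C and 4.16 and 5.24 in Q111-T, with Slc1a3 as the largest part in STHdhQ111 cells. Slc1a3 had 9.86 ± 1.09 TPM in Q111-C and 2.75 ± 0.438 in Q111-T, whereas Aldh1l1 had 0.0384 ± 0.0665 and 1.32 ± 0.280, and Slc1a2 0.0634 ± 0.0227 and 0.287 ± 0.0561. Gfap reached at most 0.328, Aqp4 at most 0.0889 and S100b at most 0.470 TPM in any library. The part of these markers in the Serpina3n result was not tested.

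Serpina3e-ps (ENSMUSG00000091553, chr12:104189517-104192926) is an unprocessed pseudogene. It was listed at 0 in all 6 nontreated libraries, at 1.17, 0.815 and 1.40 TPM in Q7-T and at 0.563, 1.27 and 1.44 in Q111-T. Against the detection limit of 12 estimated counts per library, its treated level was at least 5.08-fold higher in STHdhQ7 and at least 4.23-fold higher in STHdhQ111 cells (adjusted p = 0.00133 and 0.000675, edgeR). Serpina3m ranged from 0 to 1.48 TPM in the treated and from 0 to 0.744 TPM in the nontreated libraries, and its start is that of Serpina3k, a gene it overlaps, so that reads between both cannot be assigned with certainty. No Serpina3m comparison passed.

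**Figure D3:**
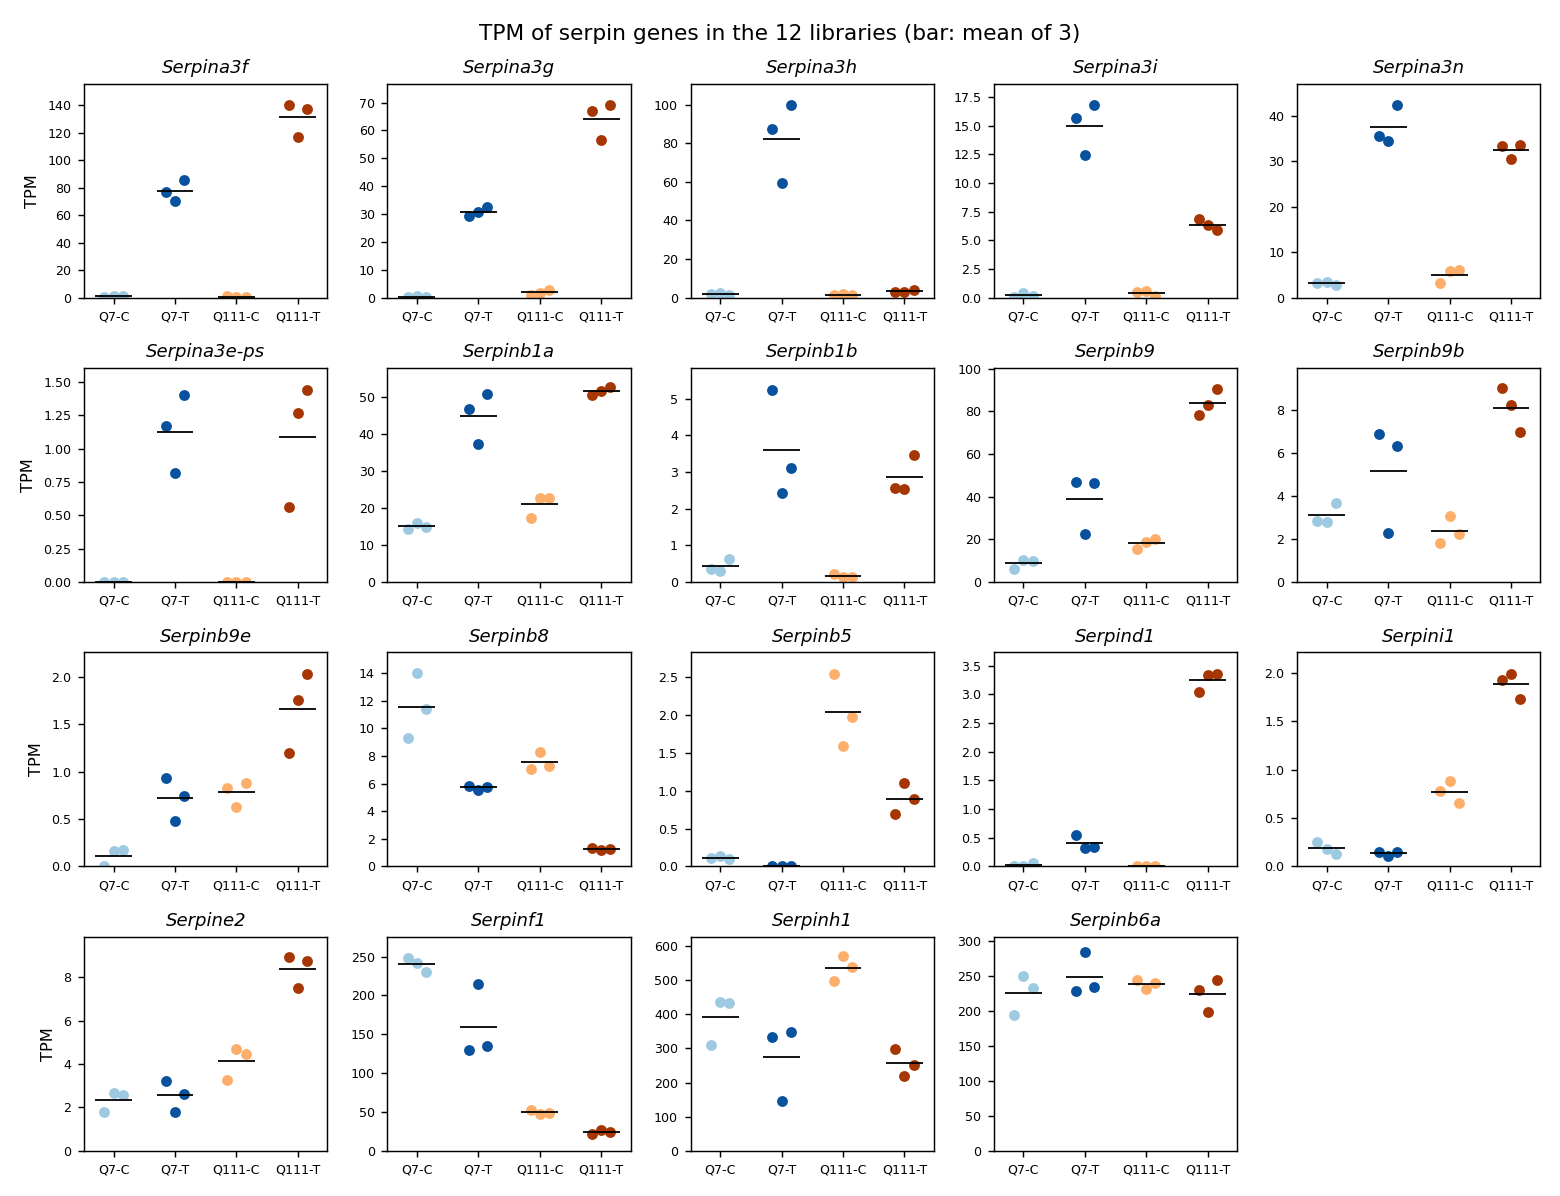
TPM (y axis, from 0, with a scale of its own in each panel) of 19 serpin genes in the 4 groups (x axis), 1 point per library and a bar at the mean of 3. Serpinb9 and Serpinb1a rise in both lines, Serpinf1 is low in both STHdhQ111 groups, and Serpind1 is highest in Q111-T.

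The clade B serpins that rose all lie on chromosome 13, where 8 were tested. Serpinb9 (ENSMUSG00000045827, chr13:33003250-33017957), the inhibitor of granzyme B, had 6.01, 10.4 and 10.1 TPM in Q7-C, 47.1, 22.8 and 46.6 in Q7-T, 15.7, 18.7 and 20.1 in Q111-C, and 78.4, 83.2 and 90.4 in Q111-T. All 4 groups were separate, and in both the nontreated and the treated state STHdhQ111 cells were higher. After treatment it rose in both lines, with log2 fold changes of 2.30 (SE 0.17, adjusted p = 3.85e-06, edgeR) and 2.32 (SE 0.17, adjusted p = 2.38e-06) and an interaction of 0.02 (95% interval -0.47 to 0.51). Between the lines, the log2 fold change was 0.75 (adjusted p = 0.00490) in nontreated and 0.77 (adjusted p = 0.00293) in treated cells, both under 2-fold, though over it in some fits with limma on log2 TPM (up to 1.07 and 1.18).

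Serpinb1a (ENSMUSG00000044734, chr13:32842092-32851185), which inhibits neutrophil elastase and related proteases, had 14.4, 15.9 and 14.8 TPM in Q7-C, 46.8, 37.4 and 50.9 in Q7-T, 17.5, 22.7 and 22.9 in Q111-C, and 50.6, 51.7 and 52.7 in Q111-T. The treated libraries were above all nontreated ones. It rose by 1.76 (SE 0.18, adjusted p = 6.35e-05, edgeR) in STHdhQ7 cells and by 1.41 (SE 0.18, adjusted p = 0.000167) in STHdhQ111 cells, with an interaction of -0.35 (95% interval -0.89 to 0.18). Its neighbour Serpinb1b (ENSMUSG00000051029, chr13:33078575-33094380) was expressed far lower, at 0.366, 0.301 and 0.619 TPM in Q7-C, 5.25, 2.43 and 3.10 in Q7-T, 0.210, 0.146 and 0.132 in Q111-C, and 2.57, 2.54 and 3.47 in Q111-T. It rose by 3.18 on the log2 scale in STHdhQ7 cells (adjusted p = 0.000182). Q111-C had 10 to 13 estimated counts per library, at the detection limit, so that the size of a change against it is uncertain. The rise in STHdhQ111 cells (adjusted p = 1.64e-05) passed in 23 of 23 alternatives, with log2 fold changes from 1.72 to 4.41. Q111-C vs. Q7-C passed downward (adjusted p = 0.00541) in edgeR but in none of 3 fits with limma on log2 TPM, where the difference was -0.97 to -0.29. The treated groups overlapped.

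The other Serpinb9 genes had lower levels. Serpinb9b (ENSMUSG00000021403, chr13:33027416-33041884) had 2.84, 2.79 and 3.66 TPM in Q7-C, 6.87, 2.30 and 6.32 in Q7-T, 1.84, 3.09 and 2.22 in Q111-C, and 9.02, 8.21 and 6.97 in Q111-T. In STHdhQ7 cells, Q7-T replicate 2 lay below all Q7-C libraries and the other 2 above them, whereas in STHdhQ111 cells the groups were separate. The log2 fold change was 0.82 (adjusted p = 0.137, edgeR) in STHdhQ7 cells, 1.05 (adjusted p = 0.0235) without Q7-T replicate 2, and 1.87 (SE 0.28, adjusted p = 0.000637) in STHdhQ111 cells, and the interaction of 1.05 did not pass (adjusted p = 0.153).

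Serpinb9e (ENSMUSG00000062342, chr13:33249612-33260850) had 0, 0.165 and 0.173 TPM in Q7-C, 0.937, 0.482 and 0.748 in Q7-T, 0.832, 0.633 and 0.884 in Q111-C, and 1.19, 1.75 and 2.03 in Q111-T. The groups of each line did not overlap, and Q7-C was the lowest, with 0, 12 and 15 estimated counts, about the detection limit, so that the size of a change against it is uncertain (log2 fold changes from 0.68 to 2.97 for Q111-C and from 0.63 to 3.28 for Q7-T over the alternatives). It was 2.52 higher on the log2 scale in Q111-C than in Q7-C (SE 0.72, adjusted p = 0.0260, edgeR), a call that held in 17 of 23 alternatives. It was lost without Q111-C replicate 1 (adjusted p = 0.0606) or Q111-C replicate 3 (adjusted p = 0.0661). The same held without both libraries with hepatocyte transcripts, without a filter on low values, with limma on log2(TPM + 1) and with only the groups compared. The response in STHdhQ7 cells, 2.88 (SE 0.73, adjusted p = 0.0437), was lost when any single library other than Q7-C replicate 1 was left out, with adjusted p up to 0.0986. In STHdhQ111 cells the response was 1.19 (SE 0.66, adjusted p = 0.271), which passed without Q7-C replicate 1 (adjusted p = 0.0302) and with only the groups compared (adjusted p = 0.0271), and the interaction of -1.69 did not pass (adjusted p = 0.362). Serpinb9f and Serpinb9g reached at most 0.736 and 0.715 TPM in any library, shared 23.6% and 17.9% of their 100-base windows with other serpin transcripts (10.1% for Serpinb9e), and passed in no comparison.

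Serpinb6a (ENSMUSG00000060147, chr13:33917918-34002794), an inhibitor of cathepsin G, was among the most abundant serpins and did not pass in any comparison. It had 194.5, 250.2 and 233.2 TPM in Q7-C, 229.0, 284.9 and 234.4 in Q7-T, 244.7, 232.3 and 240.0 in Q111-C, and 230.6, 198.9 and 245.5 in Q111-T. All groups overlapped, and the log2 fold change after treatment was 0.42 (95% interval -0.10 to 0.94) in STHdhQ7 cells and 0.01 (95% interval -0.51 to 0.53) in STHdhQ111 cells. The gene overlaps Nqo2 and Ripk1 on the opposite strand. The libraries were stranded, and whether the counting used strand is not given in the sources used here.

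Serpinb8 fell after treatment in STHdhQ111 cells. Serpinb8 (ENSMUSG00000026315, chr1:107590006-107610484), an inhibitor of furin, had 9.33, 13.98 and 11.4 TPM in Q7-C, 5.86, 5.57 and 5.78 in Q7-T, 7.03, 8.29 and 7.29 in Q111-C, and 1.34, 1.20 and 1.26 in Q111-T. The treated libraries of each line were below its nontreated ones, and Q111-T was the lowest group by far. The log2 fold change was -0.77 (SE 0.19, adjusted p = 0.0417, under 2-fold, edgeR) in STHdhQ7 cells and -2.46 (SE 0.21, adjusted p = 7.33e-06) in STHdhQ111 cells. Without Q7-T replicate 2, it was -1.01 in STHdhQ7 cells (adjusted p = 0.00147) and thus past both thresholds. The responses differed by -1.69 (95% interval -2.29 to -1.08, adjusted p = 0.00488), and Q111-T vs. Q7-T was -2.62 (adjusted p = 3.75e-06).

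Serpinb5 (ENSMUSG00000067006, chr1:106861173-106883348) encodes maspin, a clade B protein without inhibitory activity. It had 2.53, 1.58 and 1.97 TPM in Q111-C and 0.695, 1.10 and 0.884 in Q111-T, but 0.107, 0.132 and 0.10 in Q7-C, and 0 in each of the 3 Q7-T libraries. It was higher in every STHdhQ111 library than in any STHdhQ7 library. It passed in Q111-C vs. Q7-C (adjusted p = 0.000224, edgeR) and in 23 of 23 alternatives, with log2 fold changes from 1.43 to 3.98, a size that is uncertain because Q7-C lies at the detection limit. Q111-T was at least 6.02-fold higher than Q7-T, a call that passed in 22 of 23 alternatives and was lost with limma on log2(TPM + 1) (0.92). In STHdhQ7 cells it passed downward (adjusted p = 0.000794), but from 12 to 14 estimated counts per Q7-C library to 0, which gives no fold, and it did not pass with limma on log2(TPM + 0.5) (adjusted p = 0.539) or log2(TPM + 1) (adjusted p = 0.722), or with only the groups compared (adjusted p = 0.112). In STHdhQ111 cells the log2 fold change was -1.06 (adjusted p = 0.102), which passed in 3 of 23 alternatives (DESeq2, limma on log2(TPM + 0.1) and only the groups compared). The interaction passed (fitted value 5.63, adjusted p = 0.00914), but with the STHdhQ7 response at the detection limit it shows no difference in extent.

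In the thrombin and plasminogen axis, Serpind1, Serpini1 and Serpine2 were higher in treated STHdhQ111 cells than in treated STHdhQ7 cells. Serpind1 (ENSMUSG00000022766, chr16:17331371-17343575) encodes heparin cofactor II, which inhibits thrombin. It was listed at 0, 0 and 0.0626 TPM in Q7-C, 0.540, 0.329 and 0.339 in Q7-T, 0 in all Q111-C libraries, and 3.05, 3.33 and 3.35 in Q111-T. It was at least 3.28-fold higher in Q7-T than in Q7-C (adjusted p = 0.0189, edgeR), a call that was lost in 4 of 23 alternatives (limma on log2(TPM + 0.5) and log2(TPM + 1), only the groups compared, and the replicate block), and at least 22-fold higher in Q111-T than in Q111-C (adjusted p = 0.000243). The treated groups did not overlap, with a log2 fold change of 2.60 in Q111-T vs. Q7-T (SE 0.72, adjusted p = 0.0184), a call that was lost without Q7-T replicate 3 (2.41, adjusted p = 0.0535). The interaction did not pass (adjusted p = 0.0590), though it did in 6 of 22 alternatives, among them the fits without Q7-C replicate 1 (adjusted p = 0.0328) or Q7-C replicate 2 (adjusted p = 0.0387) and DESeq2. Serpind1 overlaps Pi4ka on the opposite strand.

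Serpini1 (ENSMUSG00000027834, chr3:75557547-75643495) encodes neuroserpin, an inhibitor of tissue plasminogen activator. It had 0.253, 0.176 and 0.132 TPM in Q7-C, 0.148, 0.109 and 0.149 in Q7-T, 0.775, 0.882 and 0.656 in Q111-C, and 1.92, 1.99 and 1.73 in Q111-T. The STHdhQ7 groups overlapped, and the STHdhQ111 groups were above them and separate from each other. The log2 fold change was 1.63 (adjusted p = 0.00573, edgeR) in Q111-C vs. Q7-C and 3.39 (adjusted p = 4.45e-05) in Q111-T vs. Q7-T. The response in STHdhQ111 cells of 1.40 (SE 0.35, adjusted p = 0.0151) was lost without Q111-C replicate 1, Q111-C replicate 3 or Q111-T replicate 2 (adjusted p = 0.0565, 0.0740 and 0.0612), and the interaction of 1.76 did not pass (adjusted p = 0.0654), though it did in 4 of 22 alternatives, which were DESeq2, limma on log2(TPM + 0.5) and log2(TPM + 0.1), and the fit without Q7-C replicate 3 (adjusted p = 0.0333). With limma on log2(TPM + 0.5) or log2(TPM + 1), neither Q111-C vs. Q7-C nor the response in STHdhQ111 cells reached 2-fold.

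Serpine2 (ENSMUSG00000026249, chr1:79794197-79858696) encodes protease nexin-1, which inhibits thrombin and urokinase. It had 1.81, 2.67 and 2.59 TPM in Q7-C, 3.22, 1.81 and 2.64 in Q7-T, 3.28, 4.67 and 4.45 in Q111-C, and 8.95, 7.499 and 8.73 in Q111-T. Every Q111-T library was above every other library, and the STHdhQ7 groups overlapped. It rose by 1.12 in STHdhQ111 cells (SE 0.15, adjusted p = 0.000311, edgeR, and under 2-fold without Q111-C replicate 1 (0.97) and with limma on log2(TPM + 0.5) or log2(TPM + 1)), and was 0.29 higher after treatment in STHdhQ7 cells (adjusted p = 0.401). The difference between both responses was 0.83 (95% interval 0.36 to 1.30, adjusted p = 0.0453), under 2-fold, and its adjusted p was over 0.05 in 10 of 12 fits with 1 library left out (up to 0.132). In Q111-T vs. Q7-T it was 1.33 higher (adjusted p = 5.63e-05).

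Of 20 genes around plasminogen and thrombin, 12 were tested. In Q111-T vs. Q7-T, 6 of them were higher (Plau, Plat, F2rl1, Thbd, Procr and St14) and 2 were lower (F2r and S100a10), where 13.3% of all genes were higher and 11.2% lower. The treated groups overlapped in F2r, and its call was lost in the fits with limma on log2 TPM. S100a10 went from -1.71 to -1.09 on the log2 scale without Q7-T replicate 2. Plat, tissue plasminogen activator and the target of neuroserpin, had 22.5 ± 4.63 TPM in Q7-C and 13.7 ± 8.08 in Q7-T, against 46.4 ± 4.71 in Q111-C and 151.7 ± 13.7 in Q111-T. It rose in STHdhQ111 cells by a log2 fold change of 1.82 (adjusted p = 0.000938, edgeR), with an interaction of 2.46 (adjusted p = 0.00480). Plau, urokinase, had 9.63 ± 1.75, 4.29 ± 2.39, 23.5 ± 3.25 and 44.1 ± 5.99 TPM in the same order of groups, with an interaction of 2.09 (adjusted p = 0.00668). In STHdhQ111 cells 5 of the 12 genes rose and 1 fell after treatment, where 8.28% of all genes rose and 2.96% fell. In STHdhQ7 cells 0 rose and 2 fell, where 2.93% of all genes rose and 1.11% fell. With each library left out in turn, Plau was a DEG in STHdhQ7 cells in 4 of 12 fits and in STHdhQ111 cells in 6 of 12, and Thbd in STHdhQ111 cells in 3 of 12 (adjusted p up to 0.149). In Q111-C vs. Q7-C 3 were higher and 1 was lower, beside 7.62% and 7.61% of all genes.

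The 3 most abundant serpins, Serpinh1, Serpinb6a and Serpinf1, made up 89.6 ± 1.68% of the summed serpin TPM in Q7-C and 88.3 ± 0.536% in Q111-C, but 64.3 ± 4.10% in Q7-T and 51.4 ± 1.41% in Q111-T. The summed serpin level itself was 959.5 ± 115.2 TPM in Q7-C and 933.1 ± 35.9 in Q111-C, and 1071 ± 119.7 in Q7-T and 982.6 ± 81.6 in Q111-T. The sums of the 4 groups overlapped, while the order of the genes did not stay the same. In Q7-C the order was led by Serpinh1, Serpinf1 and Serpinb6a, and the levels of Serpinf1 and Serpinb6a lay within their spread. In Q111-T it was Serpinh1, Serpinb6a, Serpina3f and Serpinb9, of which Serpinh1 and Serpinb6a lay within their spread, and Serpinf1 had moved from the second to the ninth place.

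Serpinf1 (ENSMUSG00000000753, chr11:75409769-75422701) was lower in STHdhQ111 cells, both without and with treatment. It had 248.5, 241.9 and 230.1 TPM in Q7-C, 130, 214.2 and 135.2 in Q7-T, 52.4, 47.7 and 48.5 in Q111-C, and 21.7, 27.2 and 24.1 in Q111-T. All 6 STHdhQ111 libraries were below all 6 STHdhQ7 libraries, and within each line the treated libraries were below the nontreated ones. The log2 fold change was -2.62 (SE 0.37, adjusted p = 0.000298, edgeR) in Q111-C vs. Q7-C and -3.24 (SE 0.38, adjusted p = 5.88e-05) in Q111-T vs. Q7-T. After treatment it was -0.29 (95% interval -1.05 to 0.46, adjusted p = 0.773) in STHdhQ7 cells and -0.91 (95% interval -1.67 to -0.15, adjusted p = 0.0996) in STHdhQ111 cells, which passed with limma on log2(TPM + 0.5) and log2(TPM + 0.1). Without Q7-T replicate 2, the response in STHdhQ7 cells was -0.91 (adjusted p = 0.0224, under 2-fold), and Q111-T vs. Q7-T was -2.60.

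Serpinh1 (ENSMUSG00000070436, chr7:99345376-99353239) was the most abundant serpin, with 309.4, 435.5 and 433.2 TPM in Q7-C, 332.6, 146.4 and 347.5 in Q7-T, 497.9, 570.0 and 537.9 in Q111-C, and 298.6, 219.3 and 252.0 in Q111-T. Q111-T lay below Q111-C without overlap, at -0.96 on the log2 scale (SE 0.16, adjusted p = 0.00107, edgeR), just under the 2-fold threshold, which it passed without Q111-C replicate 1 (-1.02), without Q111-T replicate 1 (-1.07), and in all 3 fits with limma on log2 TPM. In STHdhQ7 cells it was -0.38 (adjusted p = 0.251), with Q7-T replicate 2 as the lowest of the 12 libraries. All 20 genes of collagen folding around HSP47 were tested, and 3 fell after treatment in STHdhQ7 cells (Col1a1, Col1a2 and Col3a1), where 1.11% of all genes fell, whereas 4 fell (these and Col5a1) and 1 rose (Plod2) in STHdhQ111 cells, where 2.96% fell and 8.28% rose. Col1a1 fell by 1.45 (adjusted p = 4.30e-05) and by 1.49 (adjusted p = 1.71e-05). In Q111-C vs. Q7-C 5 of the 20 were higher and 0 lower (7.62% and 7.61% of all genes), and in Q111-T vs. Q7-T 8 were higher and 0 lower (13.3% and 11.2%). Without Q7-T replicate 2, P4ha1 was no longer among the 8 (0.91) and Kdelr3 newly passed.

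The other 23 serpins did not reach the minimum, and 15 of them were listed at 0 in at least 6 libraries. In clade B, Serpinb9d and Serpinb1c reached at most 0.631 and 0.527 TPM, Serpinb9c, Serpinb6b, Serpinb9h and Serpinb6c at most 0.326, and Serpinb10, Serpinb2 (PAI-2) and Serpinb6d at most 0.138. Serpinc1 (antithrombin) reached at most 0.519 TPM, Serpinf2 (antiplasmin) 0.414 and Serpine3 0.162. In clade A, Serpina9, Serpina4-ps1, Serpina10, Serpina11 and Serpina12 reached at most 0.291 TPM.

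The remaining clade A genes, the 5 Serpina1 genes (α1-antitrypsin) and Serpina3k, are serpins of the liver and had their TPM in 2 libraries. Serpina1c was listed at 2.86 TPM in Q7-C replicate 3, at 5.15 in Q111-T replicate 2, and at 0 in the other 10 libraries. Serpina3k had 2.89 and 5.05 TPM in the same libraries and 0 in the other 10. Serpina1a, Serpina1b, Serpina1d and Serpina1e had 2.499, 1.40, 0.805 and 0.171 TPM in Q7-C replicate 3 and 3.66, 2.68, 1.58 and 0.408 TPM in Q111-T replicate 2, and at most 0.0751 TPM elsewhere. The hepatocyte markers Alb (albumin) and Ttr (transthyretin) moved with them, at 16.9 and 2.52 TPM in the former and 26.9 and 5.41 TPM in the latter library, against at most 0.183 and 0 in the other 10. Apoa1 had 6.503 and 9.499 TPM there and up to 4.001 TPM elsewhere. Hnf4a did not follow this pattern, with 0 TPM in Q7-C replicate 3, 0.1812 in Q111-T replicate 2 and up to 0.1331 in the other 10. These 4 hepatocyte markers summed to between 0 and 25.9 TPM in Q7-C, 0.0635 and 0.944 in Q7-T, 0 and 4.15 in Q111-C, and 0.0470 and 42.0 in Q111-T. Plg, plasminogen itself, was listed at 0.498 and 0.674 TPM in these 2 libraries and at 0 in the other 10. With both libraries left out, 5, 8, 11, 14 and 3 serpins passed between the nontreated lines, between the treated lines, after treatment in STHdhQ7 cells, after treatment in STHdhQ111 cells and in the interaction, where 6, 8, 12, 14 and 3 passed with all libraries, and both calls of Serpinb9e were the ones lost (adjusted p = 0.0554 and 0.127).

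**Figure D4:**
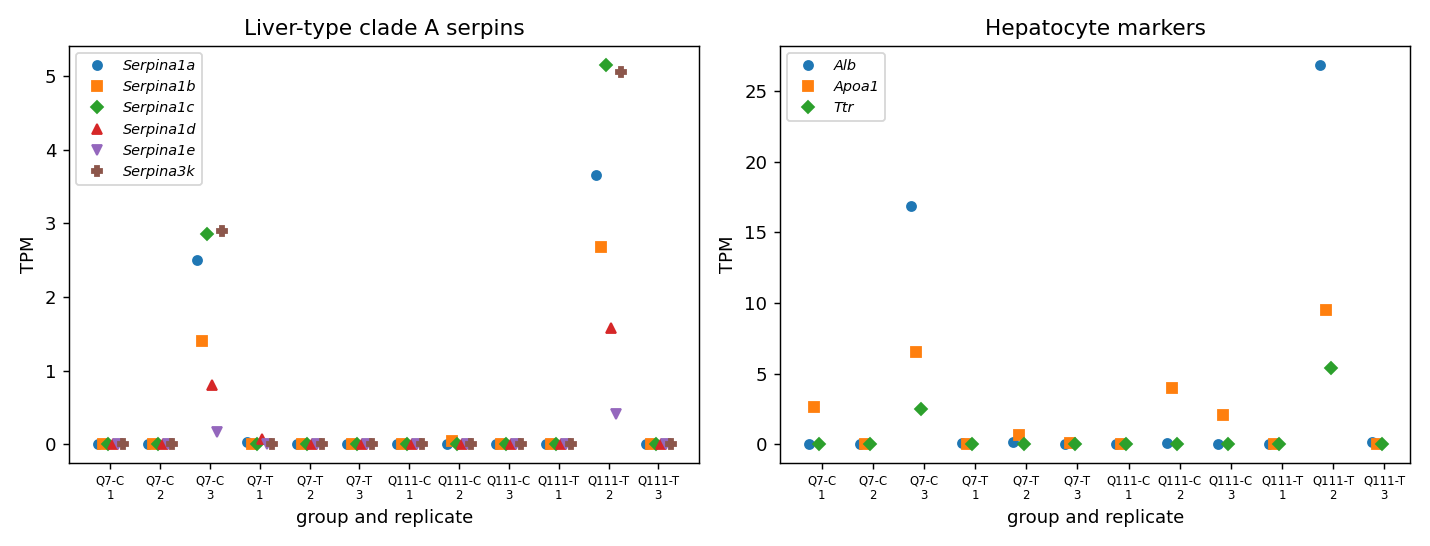
TPM (y axis) of 6 liver-type clade A serpins (left) and of 3 hepatocyte markers (right) in each of the 12 libraries (x axis, group and replicate). The serpins and Alb are raised in Q7-C replicate 3 and Q111-T replicate 2 alone, whereas Apoa1 is also above 0 in other libraries.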

How the data were processed

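The members and the gene lists were chosen with earlier results of these data known. According to the study's methods, the authors trimmed reads of stranded poly(A) libraries with Cutadapt, mapped them to GRCm38 with HISAT2 and quantified merged transcripts with StringTie. The deposited table holds TPM and unnormalized estimated counts per gene, both made by the authors. The TPM sum to between 688352 and 719623 per library, and low counts favour multiples of 4, so 1 read pair was taken as about 4 estimated counts and 12 counts per library as the detection limit (counting error only). Named with values were the 23 serpins that passed the minimum, with per-library values for those called in a comparison and the 3 most abundant. Of these, 1 is not reported here, though counts over the 23 include it.

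Counts were scaled by TMM and fitted for all 12 libraries with a mean per group (edgeR 4.0.16 in R 4.3.3), and p-values were adjusted by Benjamini-Hochberg over 16127 genes. The standard error was derived from the F statistic. Alternatives used DESeq2 1.42.0, limma 3.58.1 on log2(TPM + 0.5), other scalings and minima, the replicate number as a block, and each library left out in turn. On simulated counts with 200 changed genes in Q111-T, 194 of 194 calls in Q111-T vs. Q7-T, 190 of 191 in Q111-T vs. Q111-C and 181 of 190 in the interaction were right. The simulation gave every gene the same dispersion and had no deviating library and no other difference between groups. It therefore checks the code and does not give the error rate of the calls in the real libraries. Replicates differed by a chi-square per degree of freedom of 19.6 or more, so no library appears to have been deposited more than once. Of the 46 serpins, all were in GENCODE M21 and 39 had the same coordinates there. Coordinates are those of the deposited table. Promoters are from RefSeq (GRCm38.p6), and figures were drawn with matplotlib 3.10.9 in Python 3.11.15.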

Additional observations from a re-analysis of the deposited data

Results flagged for a closer look

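The test of the difference between the responses of both lines to IFNγ/LPS (edgeR's interaction term, Benjamini-Hochberg adjusted) had an adjusted p under 0.05 for 4 serpins. Serpina3h rose less in STHdhQ111 cells, with a difference of -4.42 between the log2 responses (adjusted p = 0.000105). Serpinb8 fell more in STHdhQ111 cells, with a difference of -1.69 (adjusted p = 0.00488). Serpine2 rose in STHdhQ111 cells, with a difference of 0.83 (adjusted p = 0.0453), which is under 2-fold and was lost in 10 of 12 fits with 1 library left out (adjusted p up to 0.132). For Serpinb5 the fitted value was 5.63 (adjusted p = 0.00914), but its STHdhQ7 libraries lie at the detection limit or at 0, the value was lost with counts divided by 4 and negative with limma, and no difference in extent is shown.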

How the results depend on the processing

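Of 2612 values of single serpins under alternative settings, 2518 kept their side of the thresholds, 41 newly passed and 50 no longer passed. The sign changed in 65 values, of which 62 passed under neither setting. The other 3 are the interaction of Serpinb5, which was -0.56, -0.0067 and -0.52 with limma on log2(TPM + 0.5), log2(TPM + 0.1) and log2(TPM + 1), where the zeros of Q7-T are set to the pseudocount. In Q111-C vs. Q7-C, 2 serpins passed with limma on log2(TPM + 1), where 6 passed in edgeR. In the interaction, 7 passed with DESeq2 and 5 with limma on log2(TPM + 0.5), where 3 passed in edgeR. The cause was not tested. With each library left out in turn, 5 to 6, 7 to 8, 11 to 13, 13 to 15 and 3 to 5 serpins passed between the nontreated lines, between the treated lines, after treatment of STHdhQ7 cells, after treatment of STHdhQ111 cells and in the interaction. With the replicate number as a block, the counts were 6, 8, 10, 14 and 3, and the calls of Serpind1 (adjusted p = 0.0610) and Serpinb9e (adjusted p = 0.0781) in STHdhQ7 cells were lost. The numbers do not pair the libraries, since same-numbered libraries correlated in their deviations by -0.416 to 0.303 and only 6 of 18 pairs were over 0.1. The setting without the libraries with hepatocyte transcripts was chosen after seeing the data. Depth limits the serpins under about 1 TPM, and 3 libraries per group limit every comparison.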

Other observations

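Of 19 proteases that intracellular or Serpina3-type serpins are known to meet, 6 were tested. In Q111-C vs. Q7-C 2 were higher and 0 lower, beside 7.62% and 7.61% of all genes. In Q111-T vs. Q7-T 2 were higher and 1 lower, beside 13.3% and 11.2%. After treatment 1 rose and 0 fell in each line, where 2.93% of all genes rose in STHdhQ7 and 8.28% in STHdhQ111 cells. Ctsb, Casp8 and Gzmm were DEGs in none of the comparisons. Ctsh, a lysosomal cathepsin, was listed at 0.324 ± 0.0279 TPM in Q7-C and 0.402 ± 0.234 in Q7-T, against 18.1 ± 0.659 in Q111-C and 23.0 ± 0.990 in Q111-T (each mean ± SD, n = 3). It was higher in STHdhQ111 cells by 5.45 on the log2 scale without treatment and by 5.24 with it (adjusted p = 1.55e-05 and 1.56e-05, edgeR), and the latter ranged from 4.85 to 6.22 with 1 library left out, the highest without Q7-T replicate 2. Ctsl, the lysosomal cathepsin L, was 1.04 higher in Q111-C vs. Q7-C (adjusted p = 0.00142) and 1.16 higher in Q111-T vs. Q7-T (adjusted p = 0.000507), and the former was just under 2-fold without Q7-C replicate 3. Casp1, an inflammatory caspase, rose in both lines (adjusted p = 0.000731 in STHdhQ7 and 0.00366 in STHdhQ111 cells), to 6.03 ± 0.592 TPM in Q7-T and 0.731 ± 0.242 in Q111-T, from at most 0.117 TPM in nontreated libraries. In Q111-T vs. Q7-T, Casp1 was lower, at -3.43 on the log2 scale (adjusted p = 0.00459, edgeR). Gzmb, granzyme B, the target of Serpinb9, was at 0 in 11 libraries and at 0.586 TPM in Q111-T replicate 2.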
